A study of Caenorhabditis elegans with 4 samples.

Results

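The expression of dve-1 and of 8 further genes of the mitochondrial unfolded protein response was examined in Caenorhabditis elegans larvae at the first larval stage (L1). The genes were taken by name: dve-1, ubl-5, atfs-1, hsp-60, clpp-1, haf-1, lonp-1, spg-7 and dnj-10. All 9 were found among the 41614 genes to which the deposited table could be matched, on 20 of its 52491 RefSeq transcripts. Wild-type larvae (2 libraries) were compared with larvae carrying the uf171 allele of dve-1 (2 libraries), each made from total RNA of about 1200 whole, synchronized animals of strains kept at 25 degrees Celsius on Escherichia coli OP50. No transgene, no further allele and no treatment is named for either genotype, and the sources used here do not say what uf171 does to the gene or its protein. Nothing says that the libraries of a genotype came from separate cultures, so the p-values measure the spread between these libraries, which may be technical.

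The mitochondrial unfolded protein response is a signal from stressed mitochondria to the nucleus. In C. elegans, the matrix protease CLPP-1 cuts misfolded proteins into peptides, and the transporter HAF-1 exports them across the inner membrane. The transcription factor ATFS-1 is imported into healthy mitochondria, where the Lon protease degrades it, and enters the nucleus when import fails. DVE-1, a homeodomain protein related to the mammalian SATB chromatin organizers, joins the ubiquitin-like protein UBL-5 in the nucleus, and mitochondrial chaperone genes such as hsp-60 are then transcribed. The response is studied mostly in the intestine, while these libraries hold RNA of all tissues. In whole animals, fewer cells of a type and less RNA per cell cannot be told apart.

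The label of whole larvae was checked against marker genes, 17 of 21 of which were in the table. The muscle myosin gene unc-54 stood at 297 to 388 FPKM (fragments scaled to transcript length and to the size of the library) over the 4 libraries, the neuronal syntaxin gene unc-64 at 54.8 to 67.1 and the intestinal regulator elt-2 at 7.92 to 11.2. Other markers were less even, with intestinal elt-7 at 5.48 to 16.5 FPKM and neuronal rab-3 at 15.6 to 28.3. Intestinal ges-1 stood at 7.62 to 10.3 FPKM. Of 6 yolk protein genes, which adults express, 4 were in the table, and none of these exceeded 0.989 FPKM. The summed level of 3 epidermal markers was 84.3 and 98.4 FPKM in wild-type larvae against 38.7 and 60.1 FPKM in mutants. Of the 3, elt-1 and lin-26 were lower in both mutant libraries than in either wild-type library, while the groups of dpy-7 overlapped. Over all genes in the test below, 15.9% were likewise lower in both mutant libraries. The germline precursor marker nos-2 was lower in mutants too, at low values (1.13 and 0.911 against 0.149 and 0.149 FPKM). The groups of glh-1 and pgl-1 overlapped. No marker that was tested passed the test below, and nos-2, pgl-1 and the yolk protein genes fell under its filter. The part of these differences in the results was not tested.

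The 9 genes spanned a wide range of levels. FPKM are scaled to length, so genes can be set side by side, but only roughly where transcript models are uncertain. For dve-1, for example, 3 of the 5 transcripts of the annotation were in the table. In wild type the chaperonin gene hsp-60 had the highest mean, 242 ± 63.3 FPKM (SD, n = 2), and ubl-5 followed with 242 ± 14.5. These neighbours overlapped in wild type and did not overlap in the mutant. Then came atfs-1 at 124 ± 21.9, clpp-1 at 97.4 ± 6.65, dnj-10 at 61.7 ± 7.89, spg-7 at 41.1 ± 1.82, lonp-1 at 20.9 ± 0.874 and dve-1 at 17.3 ± 3.104 FPKM (SD, n = 2). The transporter gene haf-1 was lowest by a wide margin, with 3.75 ± 0.576 FPKM (SD, n = 2). From ubl-5 down, no neighbours overlapped in wild type. In the mutant the order was the same except that dve-1 stood above lonp-1.

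**Figure D1:**
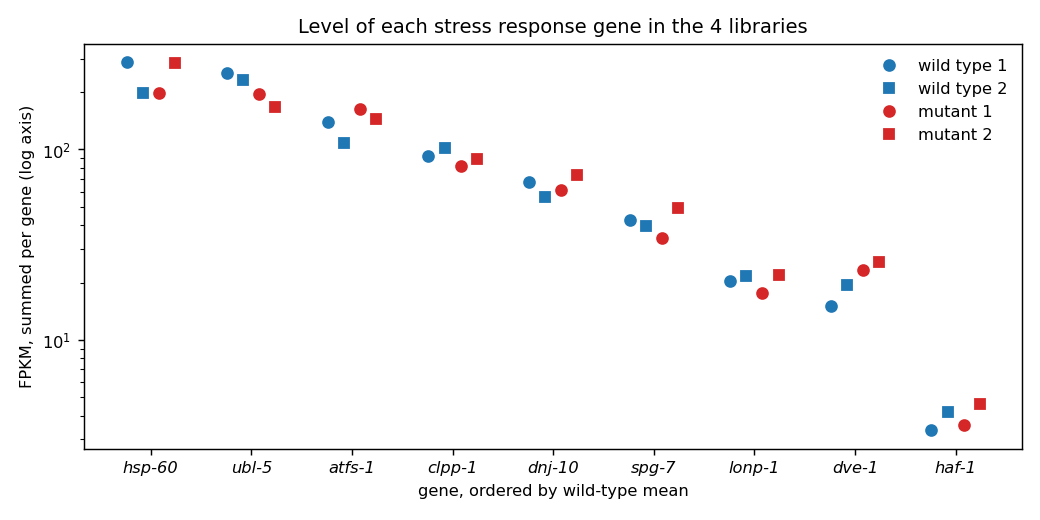
Level of each of the 9 genes in FPKM, summed per gene, on a log axis, for each library (blue, wild type; red, mutant; circles, replicate 1; squares, replicate 2). Both red points lie above both blue points for dve-1 and atfs-1 and below them for ubl-5 and clpp-1.

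None of the 9 genes passed the threshold between genotypes. Each was tested with limma on log2(FPKM + 1) together with all 15202 genes that had a mean of at least 1 FPKM, a filter that all 9 passed. At a Benjamini-Hochberg adjusted p of 0.05, 0 of the 9 were called and 1, ubl-5, had an unadjusted p under 0.05, as did 11.9% of all genes tested, a share that comes to about 1 of 9. Of all genes tested, 0.303% (46 genes) were called higher and 1.36% (206) lower in the mutant, and such shares of 9 genes come to about 0. This split turned with the genotype that lost a library. Most calls were higher in the mutant when either mutant library was left out, and most were lower when either wild-type library was. A lone library was then assumed to vary like those of the other genotype, and the cause of the turn was not tested. With the replicate number as a block 0 genes were called and 1166 had an unadjusted limma p under 0.05, and among genes at 0.5 FPKM or more in each genotype 5 were called. In each of these fits 0 of the 9 genes passed. The 95% intervals of the 9 fold changes reached from 0.544-fold at the lowest bound to 2.00-fold at the highest, and 8 of the 9 included no change. Among genes within the range of mean levels of the 9, the smallest log2 change that passed was 1.30 in size, which lies beyond each of these intervals.

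Of the 9 genes, 2 had both mutant values above both wild-type values and 2 had both below. Over all genes tested these shares were 28.1% and 15.9%, so the counts are near the background and are given only as a description.

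The regulators of the response come first. The transcript of dve-1 (ZK1193.5; chromosome X, 427035 to 433812, minus strand, WBcel235) measured 15.1 and 19.5 FPKM in wild-type larvae against 23.4 and 25.5 FPKM in mutants. Both mutant libraries were higher than both wild-type libraries. The log2 fold change, 0.49 (SE 0.17, 95% interval -0.03 to 1.00), did not pass (limma adjusted p = 0.439), and 28.8% of all genes tested had a larger change in either direction. An allele need not alter the amount of RNA, so these values are no check of the genotype labels.

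The gene of its partner, ubl-5 (F46F11.4; chromosome I, 5607826 to 5608841, minus strand), measured 252 and 231 FPKM in wild-type larvae against 196 and 167 FPKM in mutants. Both mutant libraries were lower, by 0.41 on the log2 scale (SE 0.13, 95% interval of the fold 0.576 to 0.978). This was the lowest fold change of the 9, and it did not pass either (limma adjusted p = 0.397). The estimates for the 2 partner genes thus had opposite signs, and with any single library left out the log2 fold change was 0.31 to 0.66 for dve-1 and -0.53 to -0.30 for ubl-5.

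The gene atfs-1 (ZC376.7; chromosome V, 14194446 to 14197699, plus strand) measured 140 and 109 FPKM in wild-type larvae against 164 and 145 FPKM in mutants. The groups did not overlap, but the lower mutant value and the higher wild-type value were close. The log2 fold change was 0.32 (SE 0.18, 95% interval of the fold 0.872 to 1.79; limma adjusted p = 0.577). It was 0.14 without the second wild-type library and 0.50 without the first.

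The genes of peptide production and export followed. The protease gene clpp-1 (ZK970.2; chromosome II, 10300710 to 10302842, minus strand) measured 92.7 and 102 FPKM in wild-type larvae against 82.2 and 89.4 FPKM in mutants. Both mutant values were lower, by 0.18 on the log2 scale (SE 0.11; limma adjusted p = 0.62). The interval of the fold, 0.699 to 1.11, was the narrowest of the 9 on the log scale. The transporter gene haf-1 (C30H6.6; chromosome IV, 17376427 to 17379322, plus strand) measured 3.34 and 4.16 FPKM in wild-type larvae against 3.56 and 4.60 FPKM in mutants. Its groups overlapped (log2 fold change 0.09, SE 0.22, limma adjusted p = 0.882). In the Ensembl annotation its exons share 64 of their 2108 bases with C30H6.9, a gene on the opposite strand that was several times more abundant, at 25.0 to 38.7 FPKM. Whether strand was used in counting is not given, so reads of the 64 bases cannot be assigned, and the low haf-1 values are uncertain to that extent.

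The chaperone genes, the usual readout of the response, differed between libraries of the same genotype. The chaperonin gene hsp-60 (Y22D7AL.5; chromosome III, 1619742 to 1625803, plus strand) measured 287 and 197 FPKM in wild-type larvae against 199 and 284 FPKM in mutants. The genotype means were nearly equal (log2 fold change -0.002, SE 0.295, limma adjusted p = 0.999), yet the libraries within each genotype differed by 0.54 and 0.51 on the log2 scale. The interval of the fold, 0.544 to 1.83, was the widest of the 9, so a rise or a fall within these bounds could not be told from no change. The DnaJ co-chaperone gene dnj-10 (F22B7.5; chromosome III, 8631165 to 8633565, plus strand) measured 67.3 and 56.2 FPKM in wild-type larvae against 61.2 and 73.3 FPKM in mutants. These groups overlapped as well (0.12 on the log2 scale, SE 0.17, limma adjusted p = 0.772).

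The quality-control proteases of the inner membrane and matrix were close between genotypes. The gene spg-7 (Y47G6A.10; chromosome I, 3467132 to 3478516, plus strand), which encodes a subunit of the m-AAA protease and whose knockdown is widely used to provoke the response, measured 42.4 and 39.8 FPKM in wild-type larvae against 34.2 and 49.3 FPKM in mutants. The wild-type values lay between the mutant values, and the interval of the fold was 0.636 to 1.57. The Lon protease gene lonp-1 (C34B2.6; chromosome I, 10676922 to 10682374, minus strand) measured 20.3 and 21.6 FPKM in wild-type larvae against 17.6 and 21.8 FPKM in mutants (log2 fold change -0.09, SE 0.15, limma adjusted p = 0.83). Here too both wild-type values lay within the range of the mutant values.

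**Figure D2:**
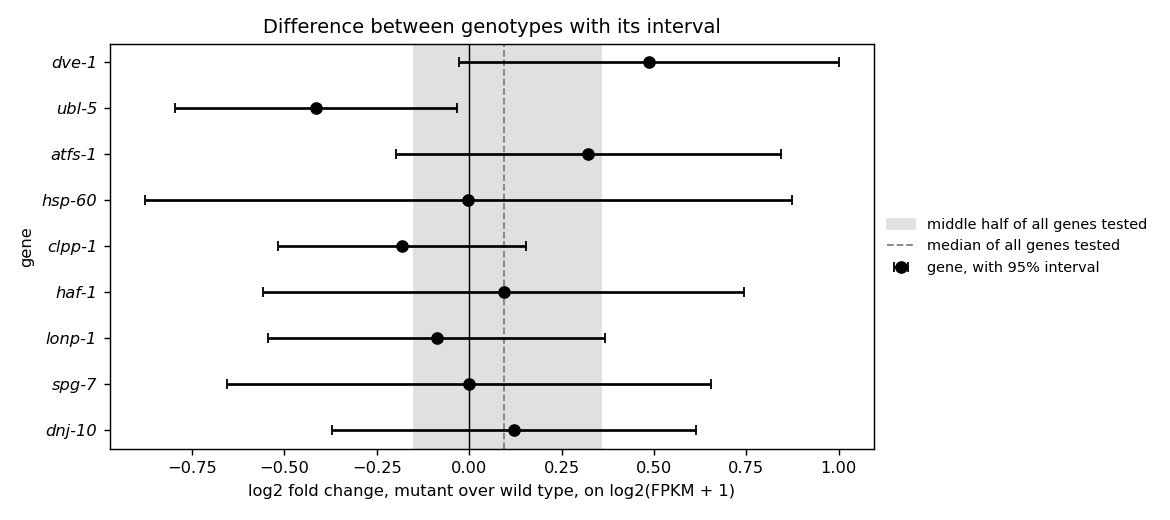
Log2 fold change, mutant over wild type, of each of the 9 genes on the log2(FPKM + 1) scale, with its 95% limma interval. The grey band spans the lower to the upper quartile of all 15202 genes tested (-0.15 to 0.36) and the dashed line is their median (0.095). Only the interval of ubl-5 leaves out 0.

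A gene's FPKM is the sum over its transcripts, and 5 of the 9 genes had several in the table. At the level of single transcripts, 17 of the 20 had a mean of at least 1 FPKM and 3 were listed at 0 in every library. Of the 17, 0 were called by limma among 20798 transcripts tested and 2 had an unadjusted p under 0.05. Of all transcripts tested, 1.87% were called in either direction and 11.6% had an unadjusted p under 0.05, so both counts are near the background. Only 2 of the 20 carried the same version number as in the annotation used for matching, so transcript models may differ between the sources.

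The division of dve-1 between its transcripts was uneven across libraries. In both wild-type libraries and the second mutant library, NM_001351875 held 53.4% to 56.1% of the gene's FPKM and NM_001029813 held the rest. In the first mutant library NM_001351875 was listed at 0 and NM_001029813 at 23.4 FPKM, against 6.73 and 9.06 FPKM in wild type and 11.2 FPKM in the second mutant library. The listed 0 may be a failed estimate. The sum for the gene was more even, and the fold changes of the transcripts had opposite signs. On the log2 scale the change was 0.97 (SE 0.43) for NM_001029813 and -1.40 (SE 1.51) for NM_001351875, against 0.49 for their sum. Neither transcript passed (limma adjusted p = 0.529 for NM_001029813 and 0.706 for NM_001351875).

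The transcripts of atfs-1 did not all lie on the same side. NM_074114 measured 19.2 and 16.6 FPKM in wild-type larvae against 34.4 and 27.6 FPKM in mutants, higher by 0.76 on the log2 scale (SE 0.18, limma adjusted p = 0.288). NM_182360 measured 21.2 and 23.3 FPKM in wild-type larvae against 12.1 and 19.5 FPKM in mutants, lower by 0.50 on the log2 scale (SE 0.28, limma adjusted p = 0.602). The mutant values of NM_074114 were all higher and those of NM_182360 all lower than in wild type, and the former took 13.7% and 15.3% of atfs-1 in wild-type larvae against 21.02% and 19.04% in mutants. The most abundant, NM_001269642, held 63.3% to 71.6% of the gene in every library, with overlapping groups.

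For clpp-1, the larger part of the signal lay on a noncoding transcript. NR_051588 held 62.0% and 66.5% of the gene's FPKM in wild-type larvae against 63.5% and 56.1% in mutants. Its values of 57.5 and 67.9 FPKM in wild-type larvae against 52.2 and 50.1 FPKM in mutants did not overlap (-0.28 on the log2 scale, SE 0.14, limma adjusted p = 0.555). The coding transcript NM_001267310 measured 15.5 and 21.3 FPKM in wild-type larvae against 14.3 and 22.1 FPKM in mutants. The other coding transcript above 0 in all libraries, NM_001267312, measured 19.7 and 12.9 FPKM in wild-type larvae against 8.30 and 17.2 FPKM in mutants (-0.385 on the log2 scale, SE 0.445). The groups of both coding transcripts overlapped, and differences between the transcripts were not tested. NM_001267311 was listed at 7.36 FPKM in the first mutant library and at 0 in the other 3.

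The transcripts of hsp-60 and dnj-10 had similar shares in both genotypes. NM_001306670 held 69.8% and 61.4% of hsp-60 in wild-type larvae against 69.8% and 62.4% in mutants. NM_066500 held 64.8% and 67.0% of dnj-10 in wild-type larvae against 65.9% and 62.8% in mutants.

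**Figure D3:**
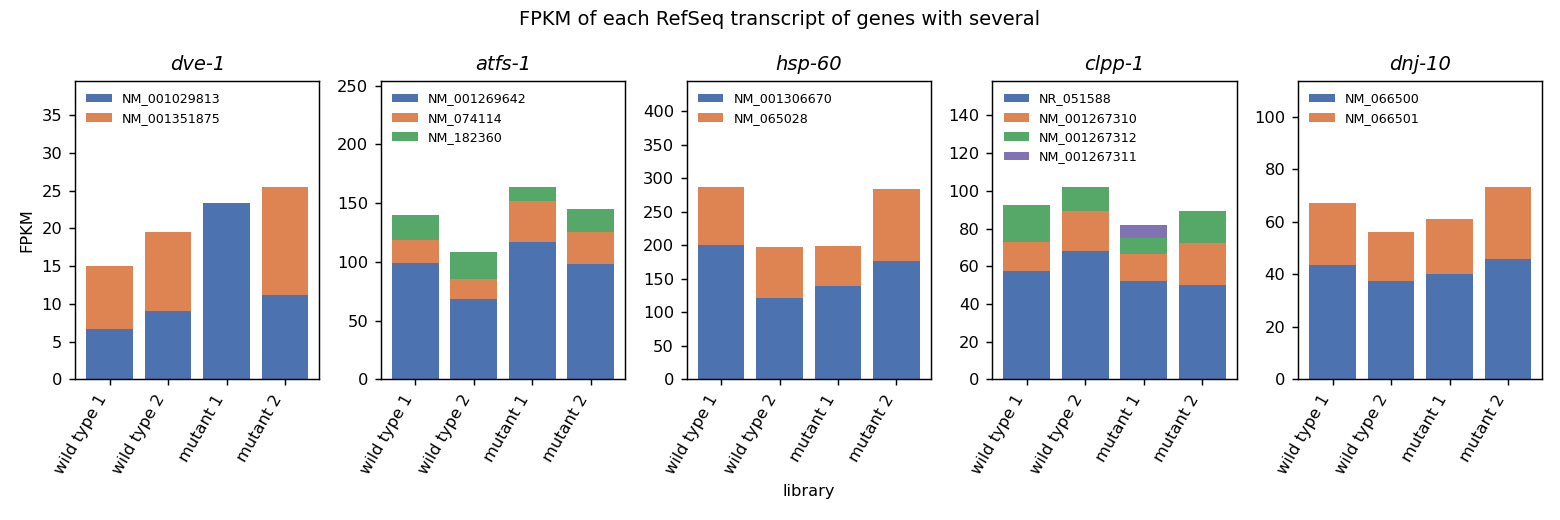
FPKM of each RefSeq transcript, stacked per library from 0, for the 5 genes with several transcripts. For dve-1 the first mutant library holds 1 transcript where the other 3 libraries hold a pair of similar size; for clpp-1 the noncoding transcript NR_051588 is the largest part in every library.

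Further genes of the response were described as 4 lists, with 44 of 50 genes tested. No gene of the lists was called by limma, and 3 of the 44 had an unadjusted p under 0.05, where 11.9% of all genes tested did. Medians are given beside that of all genes tested, a log2 fold change of 0.095.

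Regulators of the response, with 15 of 16 genes tested, had a median log2 fold change of 0.17. In 6 of them both mutant values were above both wild-type values and in 1 both were below, where the shares over all genes tested are 28.1% and 15.9%. Under median-ratio scaling, which brings the median of all genes tested to 0.006, that of the list was 0.066. The largest change was that of jmjd-3.1, a histone demethylase gene, at 15.5 and 12.7 FPKM in wild-type larvae against 19.3 and 21.1 FPKM in mutants (0.49 on the log2 scale, SE 0.15, limma adjusted p = 0.392). The SUMO protease gene ulp-4, whose product acts on DVE-1 and ATFS-1, measured 48.8 and 59.0 FPKM in wild-type larvae against 61.1 and 76.7 FPKM in mutants. The gene lin-65, whose product works with the histone methyltransferase MET-2 in the chromatin step of the response, was the single member with both mutant values below, 25.2 and 27.2 FPKM against 32.9 and 30.05. The most abundant regulators, skn-1 and zip-3, overlapped between genotypes, at 79.0 and 120 against 66.1 and 97.4 FPKM and at 80.06 and 63.97 against 61.2 and 69.5 FPKM.

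Other mitochondrial chaperone, protease and import genes, with 14 of 17 tested, had a median log2 fold change of -0.12. Both mutant values were above both wild-type values in 3 of them and below in 3. Over all genes tested these shares were 28.1% and 15.9%, so the counts are near the background and are only a description. The mitochondrial Hsp90 gene trap-1 measured 460 and 490 FPKM in wild-type larvae against 309 and 388 FPKM in mutants (-0.45 on the log2 scale, SE 0.15, limma adjusted p = 0.42). The paraplegin gene ppgn-1, whose product is related to SPG-7, measured 16.6 and 16.0 FPKM in wild-type larvae against 11.8 and 12.8 FPKM in mutants (-0.38 on the log2 scale, SE 0.12, limma adjusted p = 0.387). The import receptor gene tomm-22 measured 366 and 262 FPKM in wild-type larvae against 213 and 245 FPKM in mutants. Those with both mutant values above were timm-23, which encodes a subunit of the inner-membrane import channel, mppb-1, a processing peptidase gene, and D2030.2. Of these, timm-23 measured 299 and 228 FPKM in wild-type larvae against 305 and 302 FPKM in mutants, and the 3 log2 fold changes were 0.215, 0.148 and 0.297. The list's median was 0.15 without the first mutant library and -0.36 without the second. The chaperone gene hsp-6, the other common reporter of the response, was not analysed here.

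Genes whose loss is known to switch the response on (9 of 10 tested) had a median log2 fold change of -0.03. The cytochrome c oxidase gene cox-5B measured 1553 and 1528 FPKM in wild-type larvae against 1682 and 1649 FPKM in mutants, and the ATP synthase gene atp-2 at 1528 and 1405 against 1264 and 1680 FPKM. In 2 genes of the list, cox-5B among them, both mutant values were above both wild-type values, and in 1 both were below. Over all genes tested these shares were 28.1% and 15.9%. The values of atp-2 overlapped. The largest change was that of clk-1, a gene of ubiquinone synthesis, at 49.5 and 37.7 against 52.9 and 54.6 FPKM (0.31 on the log2 scale, SE 0.17, limma adjusted p = 0.588). The complex II gene mev-1 was listed at 0 in all 4 libraries; since every cell uses it, that value is given only as listed.

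Reported targets outside the mitochondrial chaperones (6 of 7 tested) had a median log2 fold change of -0.002. The aminotransferase gene bcat-1 measured 147 and 157 FPKM in wild-type larvae against 196 and 162 FPKM in mutants, with both mutant values higher. The gene hmg-5, which encodes a DNA-packaging protein of mitochondria, stood at 55.8 and 66.7 against 45.4 and 55.8 FPKM, with both lower by a small margin. The lectin gene clec-47 had the largest change, 62.3 and 58.8 against 36.9 and 63.9 FPKM, and its groups overlapped (-0.31 on the log2 scale, SE 0.31, limma adjusted p = 0.672).

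**Figure D4:**
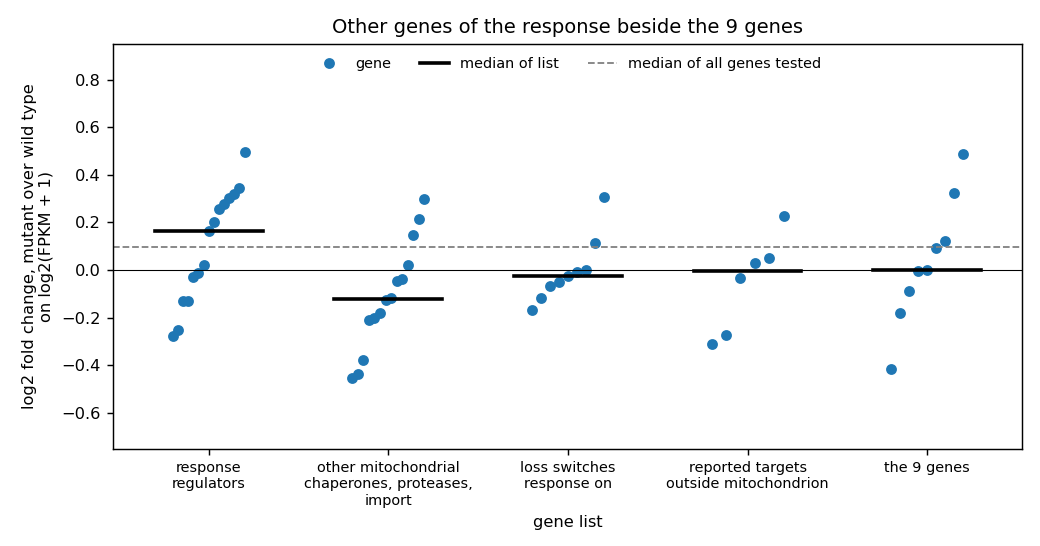
Log2 fold change, mutant over wild type, on the log2(FPKM + 1) scale, of each tested gene of the 4 lists and of the 9 genes, with the median of each list (black bar) and of all genes tested (dashed line, 0.095). The list medians run from -0.12 (other chaperones, proteases and import) to 0.17 (regulators).

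The spread of hsp-60 within genotypes was seen in other genes as well. Y22D7AL.10, a chaperonin cofactor gene that lies 812 bases from hsp-60 on the opposite strand, measured 1238 and 759 FPKM in wild-type larvae against 799 and 1107 FPKM in mutants. It was thus high in the same 2 libraries as hsp-60, the first of wild type and the second of the mutant. The prohibitin gene phb-1 did the same, with 453 and 353 FPKM in wild-type larvae against 320 and 475 FPKM in mutants. Of the 14 other chaperone, protease and import genes, 9 were higher in wild-type replicate 1 than in replicate 2 and higher in mutant replicate 2 than in replicate 1, as were 3 of the 9 genes, hsp-60, spg-7 and dnj-10. So were 6 of the 9 genes whose loss switches the response on, 4 of the 6 reported targets and 5 of the 15 regulators. Of all genes tested, 21.6% had it. This direction was chosen after the values of hsp-60 were seen, and genes of 1 library are not independent, so the counts are a description. The epidermal collagen gene dpy-7, whose level follows the moulting cycle, measured 23.1 and 0.232 FPKM in wild-type larvae against 2.37 and 10.8 FPKM in mutants, high and low in the same libraries. The other epidermal markers shared this only in the mutant. There elt-1 and lin-26 were lower in the first library, at 4.73 against 17.2 and 31.6 against 32.0 FPKM. In wild type they were lower in the first library too, at 24.9 against 32.0 and 36.2 against 66.2 FPKM. Of 3 intestinal markers, 2 had the direction of hsp-60 in both genotypes, elt-2 by a very small margin in wild type. The other was elt-7, at 12.1 and 5.48 FPKM in wild-type larvae against 10.2 and 16.5 FPKM in mutants. Of 2 muscle and 2 neuronal markers, 0 had it. The part of these markers in the values of hsp-60 was not tested.

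**Figure D5:**
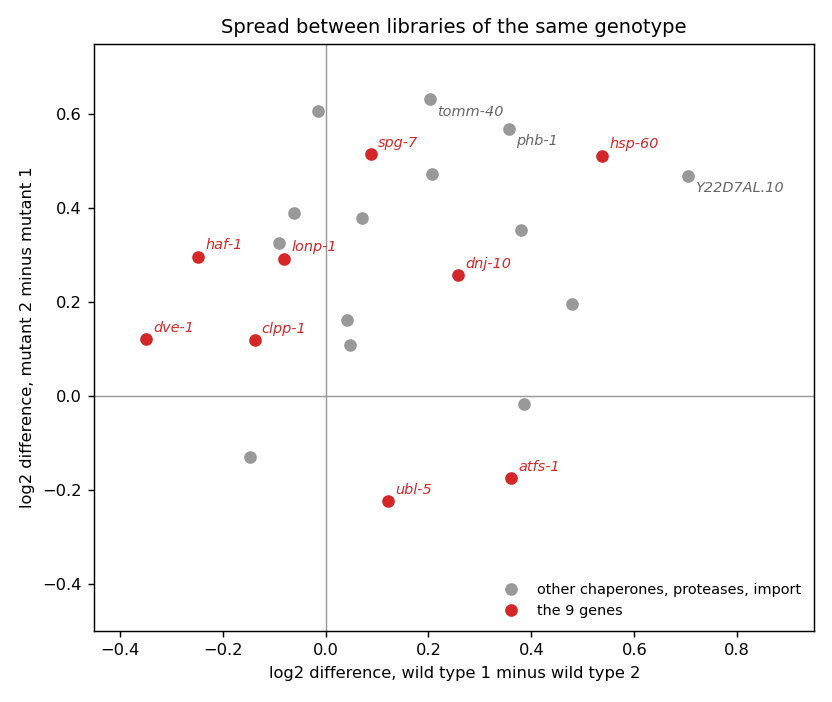
Difference between libraries of the same genotype on the log2(FPKM + 1) scale: the first minus the second wild-type library (horizontal) against the second minus the first mutant library (vertical), for the 9 genes (red) and the 14 other chaperone, protease and import genes (grey). hsp-60 and Y22D7AL.10 lie far to the upper right, while ubl-5 and atfs-1 lie below 0 on the vertical axis.

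Genes with a pattern most like that of dve-1 were sought among 10750 genes at a mean of 5 FPKM or more, by the largest difference between log2(FPKM + 1) values over the 4 libraries after centring each gene on its own mean. The closest were Y79H2A.12 (largest difference 0.045), linc-101 (0.045) and plpp-1.2 (0.054). The first of these measured 7.01 and 8.91 FPKM in wild-type larvae against 10.97 and 12.6 FPKM in mutants. In all, 38 genes lay within 0.1 of dve-1, and over 4 libraries such likeness is easily met. Of the other 8 genes, haf-1 had a mean under 5 FPKM and was not compared. None of the rest was among the 38. The closest of those compared, lonp-1, differed from dve-1 by 0.42.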

How the data were processed

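Total RNA of whole L1 larvae was sequenced in 4 libraries, 2 per genotype, with groups taken from the sample titles. The submitters' processing notes name TopHat2, Cufflinks and genome build ce11; the sources used here give neither versions, nor strand, nor how multiply aligned reads were treated. The authors deposited FPKM per RefSeq accession; the unit is taken from the tool and the scale of the values. Accessions without their version were matched to a RefSeq gene table of WBcel235, the assembly of ce11: 47645 of 52491 matched, and the 4846 others held 20.9% to 21.7% of summed FPKM per library. FPKM were summed per gene. Fragment totals are not in the table. Between the wild-type libraries 365 of 1714 values under 0.3 FPKM stood at a ratio of 1.0791 (tolerance 0.0002), a step of whole reads. No other pair of libraries shared a ratio in more than 8, and the mutant pair did in 8 of 1393. Counting error could therefore not be given. Why only the wild-type pair shared a step, and whether this bears on the comparison of genotypes, was not tested.

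Genes, and separately accessions, averaging 1 FPKM or more entered limma 3.58.1 (R 4.3.3), with a trend for intensity, on log2(FPKM + 1), Benjamini-Hochberg adjusted over all features, at 0.05. Fold changes and intervals are on that scale, which understates changes of low genes. The step was tested on simulated data. The genes, lists, tests and alternatives were chosen with earlier results of these data known. Named from each list were the 2 most abundant genes and the 1 with the largest change at a mean of 5 FPKM or more; ulp-4, lin-65, ppgn-1, tomm-22, timm-23, mppb-1, D2030.2, phb-1, mev-1 and C30H6.9 were picked after seeing values. No sequences are printed.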

Additional observations from a re-analysis of the deposited data

How the results depend on the processing

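With limma, 0 of the 9 genes passed under any of 17 alternatives, as in the reported fit: pseudocounts of 0.1 and 5, no filter or a mean of at least 5 FPKM (which leaves out haf-1), median-ratio or quantile scaling, other variance models, the replicate block, each library left out, the most abundant transcript alone, unmatched accessions added, protein-coding genes alone, and genes at 0.5 FPKM or more in each genotype, the last chosen after seeing the data. The direction of dve-1, ubl-5, atfs-1 and clpp-1 held in all of them. Directions of the other genes, all near 0, turned: spg-7 was 0.002 with a pseudocount of 5 and hsp-60 was 0.009 with its most abundant transcript. With 1 library left out, log2 fold changes ranged from -0.271 to 0.267 for hsp-60, from -0.257 to 0.257 for spg-7, from -0.234 to 0.058 for lonp-1, from -0.055 to 0.242 for haf-1 and from -0.007 to 0.250 for dnj-10. A lone library was then assumed to vary like the other genotype's.

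The number of member transcripts called was 0 to 1 with 1 library left out. The 1 was NM_001267311 of clpp-1 without the second mutant library (limma adjusted p = 0.0278), where 7.36 FPKM in a single library stands against listed zeros. Over all genes, 252 were called, 18.3% of them higher. The count was 105 at a mean of at least 5 FPKM, 391 without the intensity trend, 165 among protein-coding genes and 5 among genes at 0.5 FPKM or more in each genotype. It was 369 to 767 with 1 library left out (750 and 767 when wild-type replicate 1 or 2 was left out, 467 when mutant replicate 2 was), and 90.0% and 91.0% of calls were higher without the first or second mutant library. With the replicate block 0 genes were called and 1166 had an unadjusted limma p under 0.05. Same-numbered libraries did not deviate together across genes (correlation -0.056 across 15202 genes). With 2 libraries per genotype, this cannot exclude that same-numbered libraries were handled together. Of 68 list medians under alternatives, 8 moved by more than the spread between libraries, 5 of them for the regulators (0.066 to 0.111). The causes of these shifts were not tested.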
